A study of Mus musculus with 4 samples.

Results

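The 82 genes described here encode proteins of the cytosolic ribosome and their close paralogs, and were followed in regulatory T (Treg) cells from mouse spleen. They were taken by name from the deposited transcript listing: every gene called Rpl, Rps or Rplp followed by a number, together with Rpsa, leaving out the Rps6k kinases and pseudogenes named as such. They were 82 of the 14193 named genes of the listing, held in 92 transcript rows, and the row with the highest mean was used for each gene. Of the 82, 42 encode 60S (large subunit) proteins, 31 encode 40S (small subunit) proteins, 3 (Rplp0, Rplp1 and Rplp2) encode the stalk of the large subunit, and 5 are paralogs (Rpl7l1, Rpl22l1, Rpl36al, Rpl39l and Rps27l). The remaining gene, Rps19bp1, meets the name rule but encodes a protein that binds Rps19 and is no part of the ribosome. Fau and Rack1 encode ribosomal proteins under other symbols and are given separately. No gene named Rpl5 is among the 82, so the set does not hold every ribosomal protein gene.

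There were 4 RNA-seq libraries of sorted splenic Treg cells of C57BL/6 mice, 2 of them wild type (WT) and 2 with Nsd2 conditionally deleted in Treg cells (cKO). Nsd2 is an enzyme that methylates histone H3. Each library held RNA mixed from at least 3 mice, and the libraries of each group are numbered 1 and 2. The labels name neither the Cre driver, the deleted exons nor the age of the animals, nor do they say whether the pools of a group were made from different animals, so a p-value here measures only the spread between these libraries. Levels are RPKM, reads per kilobase of transcript, scaled to the mapped reads of the library. A log2 difference is on the log2(RPKM + 1) scale unless stated.

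The targeted gene was checked first. Nsd2 stood at 6.82 and 7.44 RPKM in WT replicates 1 and 2, against 3.46 and 4.27 RPKM in cKO replicates 1 and 2, a log2 difference of -0.74 (SE 0.15, limma unadjusted p = 0.00305, adjusted p = 0.9998). The groups did not overlap, and transcript remained in both cKO libraries. All 6 Treg markers were present, with Foxp3 between 113 and 145 RPKM. Markers of other cells were low: the 3 B cell markers found (of 5 listed) summed to 8.46 and 6.78 RPKM in WT against 11.7 and 10.8 RPKM in cKO, and all 3 had both cKO libraries above both WT libraries. The 3 erythroid markers found (of 4 listed) summed to 17.9 and 8.66 RPKM in WT against 32.2 and 5.40 RPKM in cKO, and the 6 myeloid markers to 6.997 and 9.82 RPKM in WT against 18.1 and 6.89 RPKM in cKO, with the highest sum of both lists in cKO replicate 1. The 3 CD8 T and NK markers found (of 4 listed) summed to 7.39 and 7.32 RPKM in WT against 5.93 and 7.24 RPKM in cKO. The 1 of them whose mean reached 1 RPKM had both cKO libraries below both WT libraries. The 2 plasma cell markers summed to between 0.307 and 0.402 RPKM. Ribosomal protein genes are active in every cell type, and the part of these other cells in the values below was not tested.

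The ribosome joins a small subunit, which reads the messenger RNA, to a large subunit, which forms the peptide bond, and each holds 1 copy of most of its proteins. Ribosomal protein messenger RNAs belong to the TOP (terminal oligopyrimidine) class: they begin at a C followed by an unbroken run of pyrimidines, through which mTOR signalling and La-related protein 1 control their translation. In T cells this machinery expands when a resting cell is activated and grows. A few ribosomal proteins have paralogs that can replace them in some tissues, and mammalian genomes hold many processed pseudogenes copied from ribosomal protein messenger RNAs, which matters for short reads.

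A pyrimidine run at the annotated start is visible in the reference sequence for some of these genes, and the windows printed below are taken from those. In RefSeq windows of 300 bases (250 before to 50 after an annotated start, GRCm38.p6), 61 of the 81 ribosomal protein genes and paralogs had an entry, with 72 windows between them. A C at the annotated start followed by 4 or more pyrimidines on the sense strand was found in 13 of the 72 windows (18.1%), 1 for each of 13 genes, against 823 of all 32851 windows (2.51%). The 6 windows below run from 10 bases before to 20 after the annotated start, with the run of pyrimidines from the start in capitals, and are shown because they cover the range of levels: Rps10, Rps18 and Rpl38 are abundant, and Rps6, Rps15a and Rpl15 are the lowest of the 76 genes that encode the ribosome's own proteins.
Rps10: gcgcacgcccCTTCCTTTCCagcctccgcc
Rps18: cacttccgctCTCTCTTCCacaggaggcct
Rpl38: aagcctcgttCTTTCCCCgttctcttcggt
Rps6: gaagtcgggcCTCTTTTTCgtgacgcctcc
Rps15a: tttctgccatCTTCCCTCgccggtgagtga
Rpl15: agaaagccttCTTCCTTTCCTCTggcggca
They lie at chr17:27635225-27635254 (minus strand), chr17:33955646-33955675 (minus), chr11:114668570-114668599 (plus), chr4:86857348-86857377 (minus), chr7:118116128-118116157 (minus) and chr14:18270967-18270996 (minus), in this order. The run was 13 bases long in Rpl15, at 40.1 RPKM, and 10 bases long in Rps10, at 1205 RPKM. Elsewhere in the windows, CCGGAAG, the core of sites bound by ETS factors, was found on either strand in 27 of the 72 (37.5%) against 8.86% of all windows. TCTCGCGA was found in 12 (16.7%) against 0.995%, and TATAAA, the TATA box core, in 7 (9.72%) against 13.6%. These are matches of letters, and no factor was measured.

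The 76 ribosomal protein genes were among the most abundant transcripts of these cells, yet they were far from equal to each other. Their median level was 428 RPKM, where the median over all 10688 genes whose mean reached 1 RPKM was 10.95 RPKM, and they made up 53 of the 100 highest named genes. From Rpl15 to Rps9 the level spanned 42.4-fold, and the middle of the list, from the first to the third quartile, spanned 276 to 773 RPKM. Medians were 365 RPKM for the 60S genes, 583 RPKM for the 40S genes and 1195 RPKM for the 3 stalk genes. Levels depend on the transcript length used for each row and on how reads of near-identical copies were divided, which the sources used here do not give.

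Of the 25 tested genes at 1000 RPKM or more, 14 encode ribosomal proteins. Rps9, which sits near the messenger RNA channel of the small subunit, was the highest, at 1817 and 1518 RPKM in WT replicates 1 and 2, against 1840 and 1624 RPKM in cKO replicates 1 and 2. Rpl18, a 60S protein, followed at 1721, 1402, 1779 and 1414 RPKM in the same order of libraries. In both genes the libraries numbered 1 were the higher ones and the genotypes overlapped. Rps15 had a mean of 1483 RPKM, Rpl13a, also known as a member of an interferon-regulated translation inhibitor complex, of 1454 RPKM, Rpl8 of 1401 RPKM, Rpl12 of 1361 RPKM, Rpl19 of 1347 RPKM and the stalk protein Rplp1 of 1342 RPKM. Rps4x, the X-linked form of Rps4, and Rps16 completed the 10 highest, at 1253 and 1215 RPKM. Compared within each library, Rps9 was above Rpl18 in 4 of 4 libraries. The other 8 pairs of neighbours among the 10 changed places in at least 1 library: the gene of higher mean was above the next in 3 of 4 libraries for 4 pairs and in 2 of 4 for the other 4.

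At the low end stood Rpl15, a 60S protein, at 39.5 and 40.8 RPKM in WT against 40.002 and 40.2 RPKM in cKO. Rps15a had 55.6 and 56.0 RPKM in WT against 55.6 and 65.0 RPKM in cKO. Rps6, the small subunit protein phosphorylated by S6 kinase, had 107 and 99.6 RPKM in WT against 106 and 109 RPKM in cKO. Rpl15 and Rps15a therefore lay apart from all other genes of the 76, and Rpl15 varied little between libraries. The GENCODE transcripts matched to both are long, 1922 nt for Rpl15 and 5179 nt for Rps15a. The median over the 69 genes matched at the same transcript version was 799 nt. Over those 69 genes, level and this length were weakly related (Spearman's rho -0.15, across genes that share the same 4 libraries). The lengths used to make the RPKM values are not given and may differ, so the part of length in these levels was not tested.

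**Figure D1:**
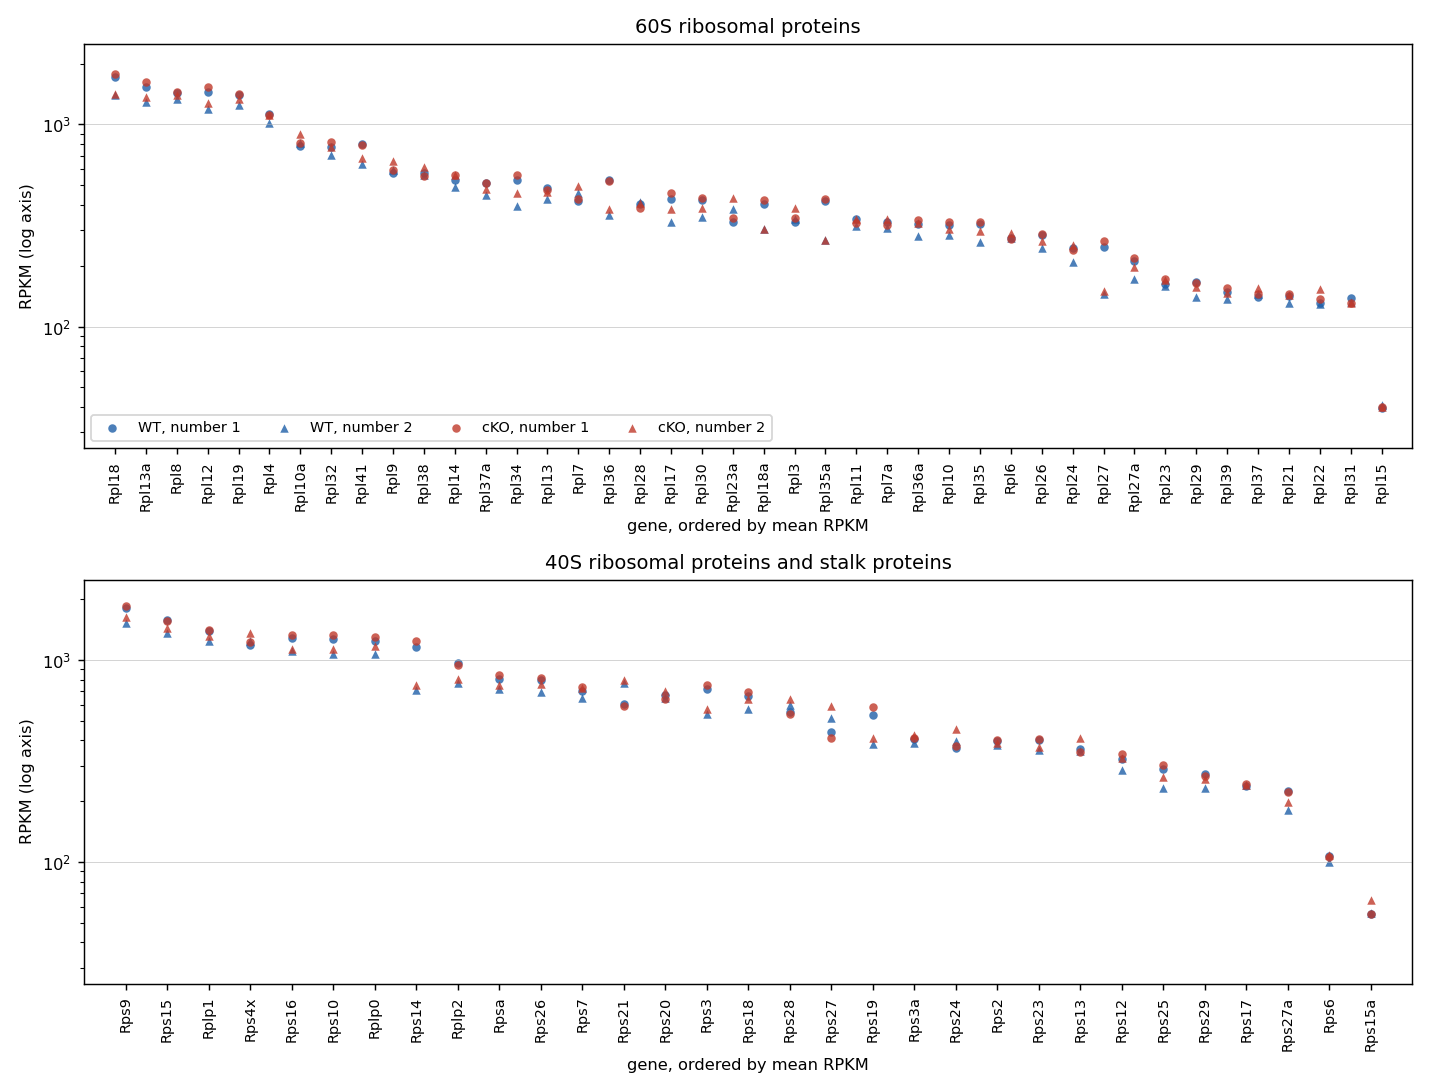
RPKM of 73 of the 76 ribosomal protein genes in the 4 libraries, on a log axis, with 60S genes above and 40S and stalk genes below, ordered by mean. Blue is WT and red cKO, circles are libraries numbered 1 and triangles those numbered 2. Rpl15 at 40.1 RPKM and Rps9 at 1699 RPKM are the ends of the range, and Rpl27 and Rps14 show circles well above triangles in both genotypes.

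Of the 82 genes, 7 had more than 1 transcript row. The 3 rows of Rps24, which encodes a 40S protein whose transcripts differ in their last exons, had means of 400.01, 391 and 383 RPKM, in the same order in all 4 libraries. The rows of Rpl35a had means of 346, 341 and 214 RPKM, and the libraries numbered 1 were above those numbered 2 in each. Rows of 1 gene overlap in sequence and are no independent measurements.

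Short reads from ribosomal protein transcripts often fit elsewhere in the genome. Cutting each coding sequence (GENCODE M21, GRCm38) into every stretch of 50 bases, the length of the reads, the share of stretches also present without a mismatch in the transcripts of other, non-overlapping genes had a median of 90.8% over the 76 genes. In 29 of them every stretch was shared, among them Rpl12, Rpl19, Rps16, Rpl27, Rps12, Rps6 and Rpl15. For the 78 mitochondrial ribosomal proteins, which serve the separate ribosome of that organelle, the median was 0%. The sharing genes were mostly pseudogenes, 1084 of 1133 pairs of gene and partner, and Rpl7a had the most, 120. The genes with less than 50% shared were 11, among them Rps3 (8.09%), Rpl8 (8.73%), Rpl4 (20.3%), Rpl22 (31.0%), Rpl32 (37.6%), Rpl13a (38.8%), Rps9 (43.0%), Rps15 (43.3%) and Rps21 (45.5%). Their median level was 1093 RPKM, where that of the other 65 was 397 RPKM, and over the 76 genes level and shared percent had a Spearman's rho of -0.40. The level also went with GC content of the coding sequence (rho 0.40). GC content had a rho of -0.37 with the log2 difference cKO minus WT, and of -0.31 with that of replicate 2 minus replicate 1. For shared percent these were -0.05 and 0.14. All these relations are across genes of the same libraries, and their part in the levels and differences was not tested.

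**Figure D2:**
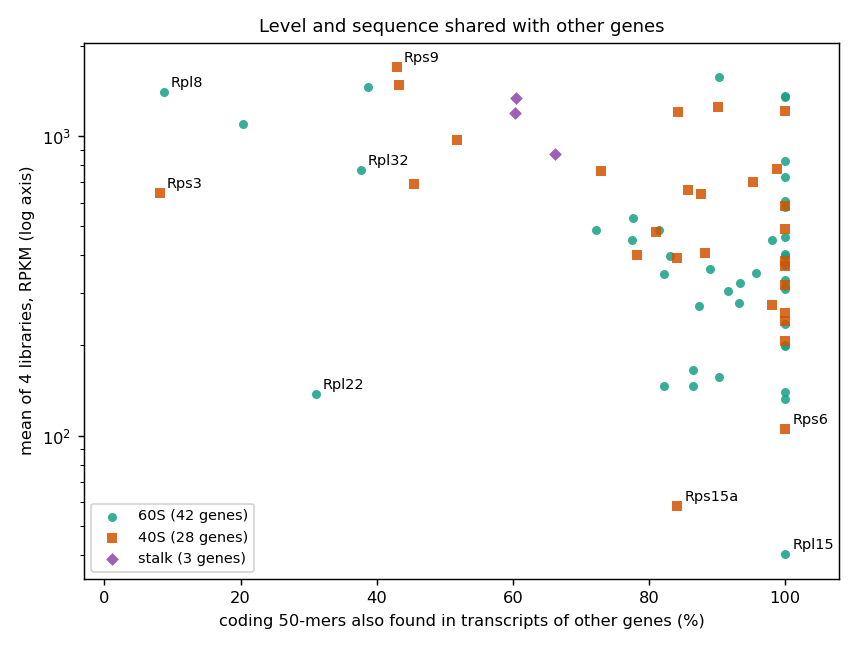
Mean RPKM of the 4 libraries (log axis) against the percent of coding 50-base stretches found in transcripts of other genes, with 1 point for each of 73 of the 76 genes, coloured by subunit. Rps3 and Rpl8, at the left, have under 10% shared, and a column of 29 genes stands at 100%, from Rpl15 to Rpl12.

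Rows of the sharing genes themselves were mostly low. The listing held 48 rows of other genes that carry at least 50% of the 50-base stretches of a ribosomal protein gene, with a median level of 0.960 RPKM, and 43 of them stood below 5% of that gene's level. Rps27rt, a retrocopy with every coding stretch of Rps27, was at 1.77 RPKM beside 488 RPKM for Rps27, and Rps6-ps4, with every stretch of Rps6, was at 0.743 RPKM beside 105 RPKM. The exceptions were Gm10073, which carries 60.4% of the stretches of Rplp1 and stood at 249.7 RPKM (18.6% of Rplp1), Gm10260 for Rps18 at 86.3 RPKM (13.5%), Gm13841 and Uimc1 for Rpl29 at 21.9 and 19.9 RPKM, and BC004004 for Rpl21 at 10.6 RPKM (7.57%). Among these exceptions only Gm13841 is annotated as a pseudogene, and the others as protein coding. Values of these genes and of the ribosomal protein genes whose stretches they carry are uncertain, since the counting could divide reads between them. In this listing Rps27, whose coding stretches are all copied, held nearly all of the value summed over itself and Rps27rt.

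Between genotypes, no ribosomal protein gene passed the test, and the differences were small and mostly on the side of the cKO. Among the 81 genes whose mean reached 1 RPKM (all but Rpl39l), the limma fit over 10688 genes called 0 at an adjusted p under 0.05, as it did over all genes (0.0%). At an unadjusted p under 0.05 it also held 0 of the 81, beside 3.11% of all genes. This fit has no term for the replicate number, so differences between the numbers add to its spread. The log2 difference was above 0 in 77 of the 81 (95.1%), where 59.2% of all genes tested were above 0, and its median was 0.07, where the median of all genes was 0.03. In this bulk RNA, a change in the number of cells of a type and in the RNA per cell cannot be told apart. With the libraries rescaled by median-of-ratios, 61 of the 81 were above 0 and the median was 0.04, with 48.1% and -0.01 over all genes. The balance also moved without WT replicate 2, which leaves WT with the library numbered 1 only: then 37 of the 81 were above 0, and the median was -0.01.

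Groups of libraries that do not overlap were about as common as among all genes on the higher side. The 2 cKO values were both above the 2 WT values in 17 of the 81 genes (21.0%), beside 17.4% of all genes tested. Both lay below in 1 gene, Rpl31 (1.23%), beside 9.06% of all genes. After median-of-ratios scaling these counts were 7 (8.64%) and 2 (2.47%), beside 13.1% and 12.7% of all genes under that scaling. The median log2 difference was 0.08 over the 42 genes of the 60S subunit and 0.06 over the 31 genes of the 40S subunit. All 31 of the 40S genes were above 0 and 5 had cKO libraries above both WT libraries. The lowest unadjusted p among the 81 was 0.187, for the paralog Rps27l.

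The separated gene with the largest difference was Rpl22, a 60S protein that T cell precursors need to develop. It had 130.04 and 129.8 RPKM in WT against 136 and 154 RPKM in cKO, a log2 difference of 0.16 (SE 0.13, limma unadjusted p = 0.269, adjusted p = 0.9998). Rpl36a, a 60S protein, had 320.02 and 280.4 RPKM in WT against 337 and 326 RPKM in cKO (log2 difference 0.14, SE 0.13). Rps12 had 322 and 286 RPKM in WT against 344 and 326 RPKM in cKO, with the same log2 difference of 0.14. In these 3 genes, and in Rpl14, Rpl3, Rps7 and Rpl32 below, the gap between the groups was smaller than the range within one of them. Rpl36al had a gap larger than the range of either group.
Rpl14 had 529 and 488 RPKM in WT against 561 and 559.97 RPKM in cKO. Rpl3, which lies close to the peptidyl transferase centre, had 329 and 340 RPKM in WT against 345 and 385 RPKM in cKO. Rps7, one of the proteins that can bind Mdm2 when ribosome assembly is disturbed, had 698 and 646 RPKM in WT against 733 and 728 RPKM in cKO. The log2 differences of Rpl14, Rpl3 and Rps7 were 0.14, 0.12 and 0.12, each with an SE of 0.13.
Rpl36al and Rpl32 closed the named 8 at log2 differences of 0.12 and 0.11, and Rpl32, with 37.6% of its stretches shared, had 776 and 709.5 RPKM in WT against 822 and 776.4 RPKM in cKO. Among the other separated genes were Rpl10a, Rpl9, Rps3a, Rpl23, Rpl37, Rpl21 and Rpl7l1, with log2 differences between 0.08 and 0.10. Rpl31, the 1 gene in the other direction, had 138 and 131.5 RPKM in WT against 130.8 and 130.9 RPKM in cKO, a log2 difference of -0.04 (SE 0.12, limma unadjusted p = 0.750). Rpl10, the protein whose loading completes the large subunit, had 317 and 284 RPKM in WT against 330.3 and 302 RPKM in cKO, so its groups overlapped.

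The 2 replicate numbers gave different sizes. Within number 1 (cKO replicate 1 minus WT replicate 1) the median log2 difference over the 81 genes was 0.03. Of the 81, 55 (67.9%) were above 0, beside 53.3% of all genes tested. Within number 2 the median was 0.11, and 76 (93.8%) were above 0, beside 60.9% of all genes tested. For all genes tested the medians were 0.01 and 0.05. The difference was above 0 within both numbers in 52 genes (64.2%), beside 38.1% of all genes tested, and below 0 within both in 2, Rpl28 and Rpl31 (2.47%), beside 24.0% of all genes. In the other 27 genes the signs were opposite. From gene to gene the sizes in the 2 numbers had little relation (Spearman's rho 0.10 over the 81 genes, 0.35 over all genes tested, and 0.53 over the 341 other genes at 100 RPKM or more). These are relations across genes within pairs of libraries, and genes are no replicates.
The 11 genes with less than 50% of their stretches shared are an alternative chosen after the data were seen. Their median log2 difference was 0.06, where that of all genes tested was 0.03. All 11 were above 0, beside 59.2% of all genes tested. Within number 1 alone, 8 of these 11 (72.7%) were above 0, beside 53.3% of all genes tested. Whether these 11 genes differ from all genes was not tested.

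**Figure D3:**
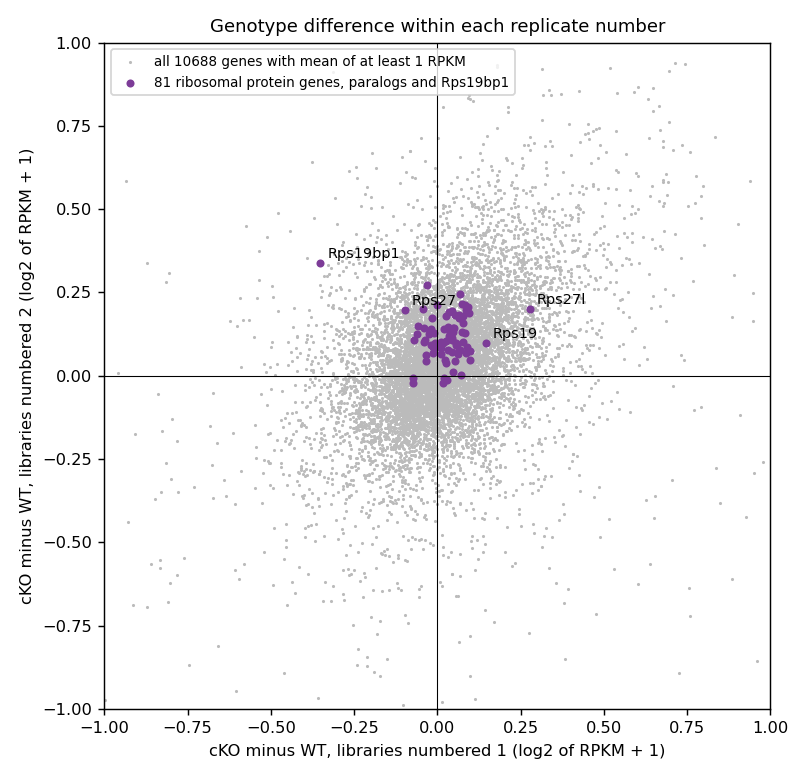
Log2 difference cKO minus WT in the libraries numbered 2 against the same in the libraries numbered 1. Grey points are the 10688 genes tested (137 lie outside the axes), and purple points the 81 ribosomal protein genes, paralogs and Rps19bp1. The purple points sit mostly above the horizontal line, at a median of 0.11, and around a median of 0.03 on the other axis, with Rps27l the farthest to the right.

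A larger part of the spread in these genes went with the replicate number than with the genotype. The absolute difference between the numbers, averaged over genotypes, had a median of 0.14 on the log2 scale over the 81 genes, and that between genotypes 0.07. The number difference was the larger one in 58 of the 81 (71.6%), beside 67.5% of all genes tested and 73.6% of the 341 other genes at 100 RPKM or more, so this balance was near that of the rest. Both libraries numbered 1 lay above both numbered 2 in 40 of the 81 genes (49.4%), beside 28.9% of all genes, and below in 12 (14.8%), beside 32.0%. Of the 341 other genes at 100 RPKM or more, 45.2% lay above and 26.98% below, so on the higher side the listed genes were close to other abundant genes. What the number marks is not given in the labels. The 3 erythroid markers were also higher in the libraries numbered 1, and their part in the pattern was not tested.

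Rpl27, a 60S protein with every stretch shared, had the largest range of the listed genes: 247 and 264 RPKM in WT and cKO replicate 1, and 144 and 149 RPKM in WT and cKO replicate 2. Rps14, a 40S protein whose loss is linked to the anaemia of the 5q deletion syndrome, had 1162 and 1245 RPKM in the libraries numbered 1 and 713 and 751 RPKM in those numbered 2. Rpl35a had 419 and 425 RPKM against 269 and 268 RPKM in the same arrangement.
In these 3 genes the numbers stood far apart and the genotypes overlapped. Within each number cKO was above WT in Rpl27 and Rps14, but not in Rpl35a. Rps19, the protein most often mutated in Diamond-Blackfan anaemia, had 531 and 588 RPKM in the libraries numbered 1 and 383 and 410.03 RPKM in those numbered 2, so that here too cKO was above WT within each number and the groups overlapped. Rps3, which has only 8.09% of its stretches shared, had 718 and 753 RPKM against 541 and 571 RPKM.
The opposite arrangement was seen in Rps21, with 609 and 595 RPKM in number 1 and 768 and 792 RPKM in number 2, in Rps27, with 439.6 and 411 RPKM against 514 and 589 RPKM, and in Rpl23a, with 331 and 343 RPKM against 380.2 and 432 RPKM. Genes of both subunits were found on both sides, with 21 of 42 60S genes and 16 of 31 40S genes higher in number 1.

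The number difference was alike in both genotypes, which do not share libraries. Over the 76 genes, the difference of replicate 2 and replicate 1 in WT and the same difference in cKO had a Spearman's rho of 0.93 and a Pearson's r of 0.95. The 11 genes with less than 50% of their stretches shared had a rho of 0.93. Over all genes tested rho was 0.68, and over the 341 other genes at 100 RPKM or more it was 0.88, so the other abundant genes came close to this value. Ranking the 76 genes by level gave the same picture. Libraries with the same number had a rho of 0.997 (WT and cKO replicate 1, and likewise replicate 2), whereas the 2 WT libraries had 0.977 and the 2 cKO libraries 0.971.

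**Figure D4:**
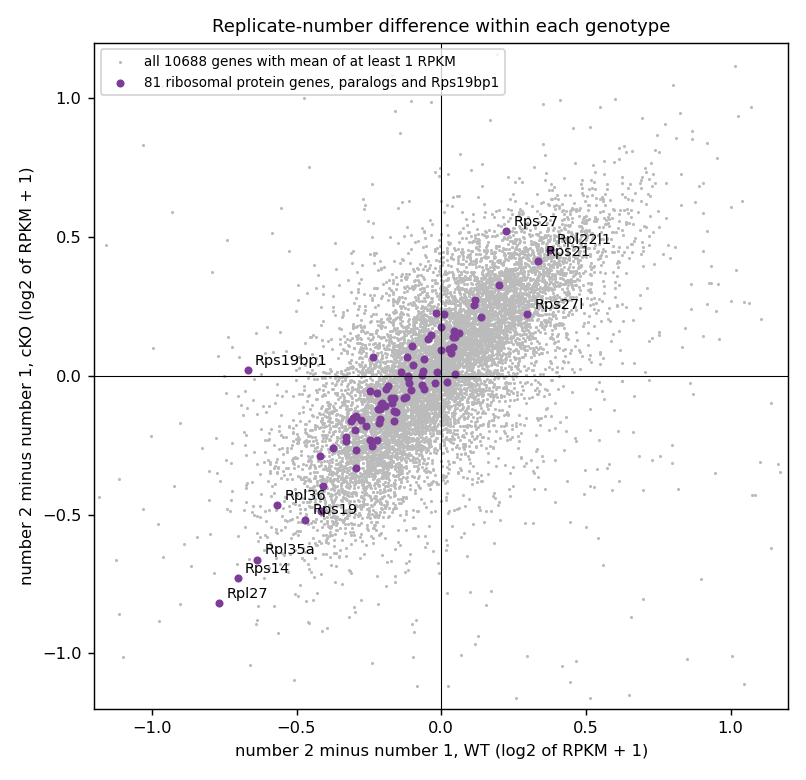
Log2 difference of replicate 2 minus replicate 1 in cKO against the same in WT. Grey points are the 10688 genes tested (106 lie outside the axes), and purple points the 81 ribosomal protein genes, paralogs and Rps19bp1. The purple points follow the diagonal, from Rpl27 and Rps14 at the lower left to Rps21, Rps27 and Rpl22l1 at the upper right, and Rps19bp1 lies off it.

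The genes took a similar part of each library. As a share of the sum of all RPKM values, the 82 genes held 10.8% and 9.66% in WT replicates 1 and 2 and 10.8% and 10.1% in cKO replicates 1 and 2, or 10.2% ± 0.780 in WT and 10.5% ± 0.479 in cKO (SD, n = 2). The difference of 0.276 percentage points was within the spread of each group (two-sided exact permutation test, p = 0.667, where 2 against 2 cannot go below 0.333). Within each number cKO was higher, by 0.0631 points in number 1 and 0.488 points in number 2. WT replicate 2 was the lowest library. Without it, WT is left with number 1 only, and the difference was -0.276 points. The ratio of the 60S sum to the 40S sum was 1.07 and 1.04 in WT and 1.07 and 1.05 in cKO (exact permutation p = 0.667), so it too went with the number.

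Paralog pairs were compared within each library. Of 8 pairs listed, 6 had values for both genes. Rpl3l and Rpl10l were not analysed here, and Rps4l, whose row carries no symbol, was used for its pair only. The conventional gene was the higher one in all 6 pairs, in every library, but by very different factors. The ratio of the means was 1.46 for Rpl36a over Rpl36al, 2.53 for Rpl22 over Rpl22l1, 15.3 for Rps27 over Rps27l, 16.9 for Rpl7 over Rpl7l1, 236 for Rpl39 over Rpl39l and 710.5 for Rps4x over Rps4l. No 50-base stretch of coding sequence was common to the genes of the 5 pairs with 2 coding sequences, so exact coding reads could be told apart within these pairs. The stretches shared with genes outside the pair ran from 0% in Rpl39l to 100% in Rpl36a and Rps27. Reads of most of these genes could therefore fit elsewhere, and the ratios carry that limit.

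Rps27 and Rps27l show how far such paralogs have parted. Both encode a zinc finger protein of the 40S subunit, and Rps27l is known as a target of p53. Their coding sequences (without the stop codon) are both 252 bases and are 76.2% identical, with the 60 bases at which they differ in capitals.
Rps27: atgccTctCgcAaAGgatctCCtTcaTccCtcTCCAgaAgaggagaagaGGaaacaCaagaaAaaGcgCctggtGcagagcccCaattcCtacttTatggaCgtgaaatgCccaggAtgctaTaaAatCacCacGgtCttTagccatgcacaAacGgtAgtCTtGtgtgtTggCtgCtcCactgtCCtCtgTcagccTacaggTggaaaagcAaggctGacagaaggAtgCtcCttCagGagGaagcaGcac
Rps27l: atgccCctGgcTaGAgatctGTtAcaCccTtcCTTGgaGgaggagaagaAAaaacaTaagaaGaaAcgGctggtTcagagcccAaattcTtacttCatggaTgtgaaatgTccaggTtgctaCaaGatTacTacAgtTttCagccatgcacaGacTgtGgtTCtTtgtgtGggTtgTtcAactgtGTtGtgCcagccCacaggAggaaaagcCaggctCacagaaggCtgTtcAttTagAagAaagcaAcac
Rps27 lies at chr3:90212522-90213651 on the minus strand and Rps27l at chr9:66946086-66949516 on the plus strand (GRCm38, whole genes). The differences are spread over the whole length, and the longest stretch in common is 11 bases. Rps27l had 26.2 and 32.4 RPKM in WT against 31.9 and 37.4 RPKM in cKO, with cKO above WT within both numbers and the groups overlapping. Its log2 difference of 0.24 (SE 0.16, limma unadjusted p = 0.187, adjusted p = 0.9998) was the only one of the 81 above 0.2. The log2 ratio of Rps27 to Rps27l was 4.02 and 3.95 in WT and 3.64 and 3.94 in cKO, a difference of -0.19. That difference came from replicate number 1 (-0.38) and was near 0 in number 2, and the exact permutation p was 0.333, the lowest that 2 against 2 allows (adjusted p over the 6 pairs 1).

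Rpl39 and Rpl39l encode one of the smallest 60S proteins, and Rpl39l is known from the testis. Their coding sequences of 153 bases are 84.97% identical, with the 23 bases that differ in capitals.
Rpl39: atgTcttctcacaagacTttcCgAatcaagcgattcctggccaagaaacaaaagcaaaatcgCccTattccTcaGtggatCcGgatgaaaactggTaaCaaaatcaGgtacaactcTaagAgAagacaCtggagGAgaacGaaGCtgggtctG
Rpl39l: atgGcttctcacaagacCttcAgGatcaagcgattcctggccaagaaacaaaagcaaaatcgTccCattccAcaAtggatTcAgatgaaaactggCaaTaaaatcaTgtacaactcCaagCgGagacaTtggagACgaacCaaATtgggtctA
Rpl39 lies at chrX:37082520-37085402 (minus strand) and Rpl39l at chr16:10170226-10174911 (plus). Rpl39 had 149 and 137 RPKM in WT against 155 and 146 RPKM in cKO, whereas Rpl39l had 0.382 and 0.649 RPKM in WT against 0.581 and 0.876 RPKM in cKO. A level under 1 RPKM rests on few reads, and Rpl39l was not tested on its own.

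Rpl22l1 was the paralog closest in level to a conventional gene after Rpl36al. Rpl22 is known to repress Rpl22l1. Rpl22l1 had 46.7 and 60.9 RPKM in WT against 46.3 and 63.9 RPKM in cKO, so it followed the number with both genotypes alike, and its log2 difference was 0.03 (SE 0.21). As a percent of the sum of the pair, it was 26.4% and 31.9% in WT and 25.4% and 29.3% in cKO. The log2 ratio of the pair differed between genotypes by 0.13, less than the SD within WT (0.27, n = 2, exact permutation p = 0.667).

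Rpl36al had 212 and 202.5 RPKM in WT against 223 and 226 RPKM in cKO, and the log2 ratio to Rpl36a differed between genotypes by 0.03 (exact permutation p = 1), although both genes had cKO libraries above both WT libraries. Their coding sequences of 318 bases are 87.7% identical. Rpl7l1 had 26.5 and 25.2 RPKM in WT against 27.6 and 26.97 RPKM in cKO, beside 416 and 457 RPKM in WT against 428 and 495 RPKM in cKO for Rpl7, and their log2 ratio differed between genotypes by 0.0022 (exact permutation p = 1).
For Rps4x and Rps4l the log2 ratio on the log2(RPKM + 1) scale was 8.71 and 9.09 in WT and 8.73 and 8.80 in cKO (exact permutation p = 1). In none of the 6 pairs did the p pass the threshold, which 2 libraries a group cannot reach, and a p that misses the threshold does not show that the ratios are equal.

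**Figure D5:**
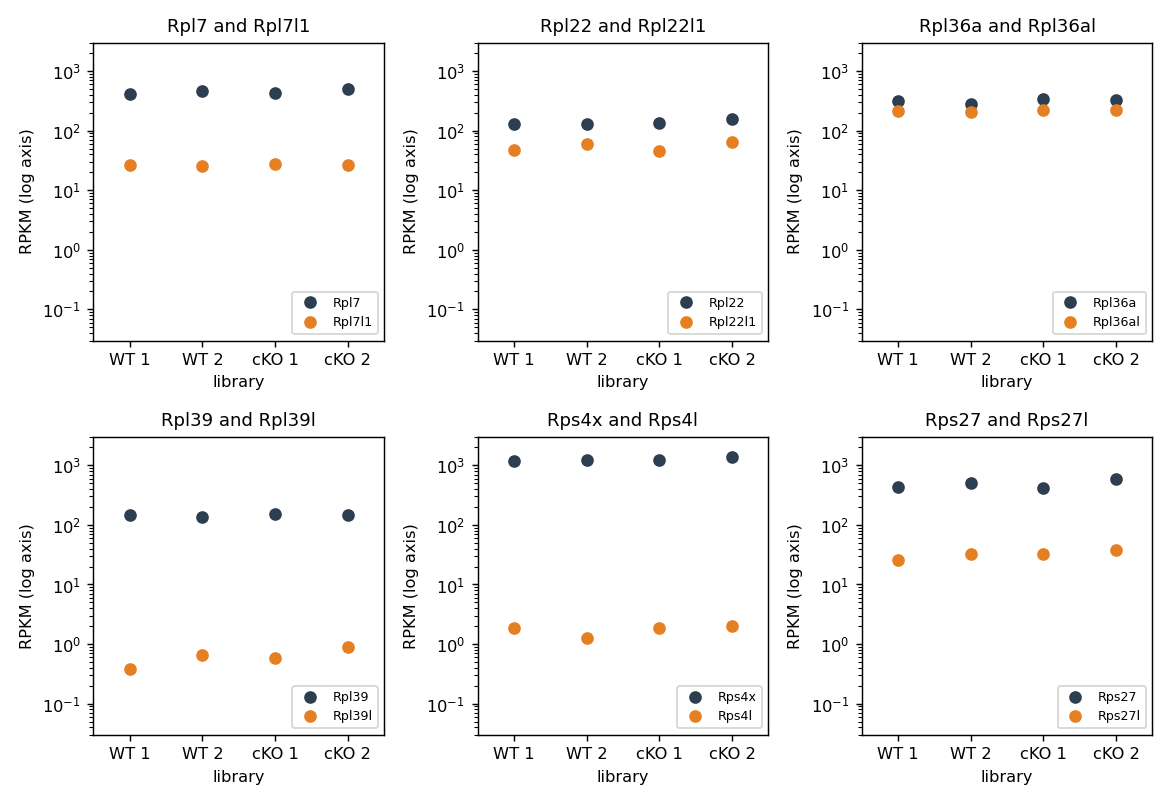
RPKM (log axis) of both genes of the 6 paralog pairs in each library, with the conventional gene in dark blue and the paralog in orange. The orange points lie below the dark ones in every panel, closest for Rpl36a and Rpl36al, with a ratio of means of 1.46, and farthest for Rps4x and Rps4l, with 710.5.

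Rps19bp1, the gene taken by its name only, stood at 12.6 and 7.55 RPKM in WT against 9.65 and 9.80 RPKM in cKO. Among the 5 genes of largest range it was the 1 whose numbers overlapped.

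Genes around the ribosome gave a similar picture: in each list limma called 0 genes at an adjusted p under 0.05, and the members counted below as higher or lower are those with both cKO libraries on one side of both WT libraries (17.4% and 9.06% of all genes). Fau, a ubiquitin-like fusion that yields a 40S protein, had 568 and 427 RPKM in WT against 579 and 449.9 RPKM in cKO. Rack1, a scaffold on the small subunit, had 962 and 944 RPKM in WT against 958 and 993 RPKM in cKO. Both genes overlapped between genotypes, and Fau was higher in number 1 within both genotypes.
Of 16 elongation factors and other messenger RNAs of the TOP class, 3 had cKO libraries above both WT libraries and 0 below, with a median log2 difference of 0.08. After median-of-ratios scaling 1 lay higher and 1 lower, beside 13.1% and 12.7% of all genes under that scaling. Those of lowest p were Hnrnpa1, an RNA-binding protein (47.3 and 48.4 RPKM in WT, 49.4 and 65.3 RPKM in cKO), Eef1b2, which recharges elongation factor 1 with GTP (198 and 208 RPKM, 210.5 and 235 RPKM), and Naca, which binds nascent chains (248 and 288 RPKM, 269 and 325 RPKM).
Of 24 initiation factors, 6 lay higher and 0 lower, with a median of 0.05. After median-of-ratios scaling 3 lay higher (12.5%) and 0 lower, beside the same 13.1% and 12.7%. Eif4a1, the helicase that opens 5' leaders, had 161 and 169.8 RPKM in WT against 179 and 194 RPKM in cKO (log2 difference 0.17, SE 0.13, limma unadjusted p = 0.223), and Eif3m and Eif5a, which eases difficult peptide bonds, had log2 differences of 0.13 and 0.12.

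Of 33 ribosome biogenesis genes, 7 lay higher and 0 lower, with a median of 0.10, made up of 0.01 in number 1 and 0.14 in number 2. The counts after median-of-ratios scaling were 6 and 0. The 3 of lowest p were Nhp2, Gar1 and Nop10, with limma unadjusted p of 0.194, 0.236 and 0.254, and each encodes a protein of the box H/ACA particles that guide pseudouridylation. Nhp2 had 29.3 and 24.6 RPKM in WT against 32.0 and 30.2 RPKM in cKO, and Nop10 had 49.8 and 48.5 RPKM in WT against 53.7 and 55.6 RPKM in cKO. Gar1 had 13.5 and 11.96 RPKM in WT against 13.5 and 15.9 RPKM in cKO, so its groups overlapped. Dkc1, the pseudouridine synthase of the same particles, named after its values were seen, overlapped too, with 15.5 and 23.2 RPKM in WT against 17.6 and 23.97 RPKM in cKO (limma unadjusted p = 0.661). Of 13 RNA polymerase I and rDNA genes found, 3 lay higher and 1 lower, with a median of 0.03, and 2 and 2 after median-of-ratios scaling. Cd3eap, a polymerase I subunit, had 6.04 and 5.39 RPKM in WT against 6.34 and 7.70 RPKM in cKO, Polr1d had a log2 difference of -0.11 and Polr1c of 0.10.
Of 16 regulators of growth and translation, 0 lay higher and 2 lower, with a median of -0.01, and 0 and 3 after median-of-ratios scaling. Eif4ebp2, which holds back the cap-binding factor, had 92.9 and 93.1 RPKM in WT against 88.4 and 79.4 RPKM in cKO (log2 difference -0.15, SE 0.12). Its relative Eif4ebp1 had a log2 difference of -0.25, with 7.89 and 6.65 RPKM in WT against 7.26 and 4.84 RPKM in cKO, and Mlst8, a subunit of both mTOR complexes, one of 0.15.

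The mitochondrial ribosomal proteins, whose reads are seldom shared, stood at far lower levels, with a median of 16.3 RPKM. Of these 78 genes, 27 (34.6%) lay higher in both cKO libraries and 1 lower, beside 17.4% and 9.06% of all genes tested, with a median log2 difference of 0.11. After median-of-ratios scaling these counts were 23 (29.5%) and 5 (6.41%), beside 13.1% and 12.7% of all genes under that scaling. The unadjusted p was under 0.05 in 3, beside 3.11% of all genes. Mrpl13 had 15.5 and 14.0 RPKM in WT against 18.8 and 18.8 RPKM in cKO (log2 difference 0.33, SE 0.12, limma unadjusted p = 0.0335, adjusted p = 0.9998). Mrpl36 had 17.3 and 17.1 RPKM in WT against 20.7 and 22.7 RPKM in cKO, and Mrpl52 had 53.1 and 48.3 RPKM in WT against 62.5 and 64.6 RPKM in cKO. Whether the mitochondrial and the cytosolic lists differ from each other was not tested.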

How the data were processed

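The deposited tables hold 1 value per RefSeq transcript and library, with no header that names the unit; the values were read as RPKM made by the authors. The submitters' processing notes name HISAT2, DESeq2 and the mm10 build, without versions. The counting tool, its use of strand and its handling of reads that fit several places are not stated in those notes or the labels. Low values moved in steps: 63.8% to 66.1% of rows held out from the depth estimate were within 0.1 of a whole read, where 20% is chance, too few to recover counts. The estimated depth was 19070000 to 21200000 reads per library.

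Of 19291 rows, 16720 were matched by accession to a RefSeq gene table of GRCm38.p6. Another 1402 were taken by a name in that table or, failing that, by the deposited name alone. The 1169 rows without a name (10.9% of the RPKM sum) were left out of the tests. limma 3.58.1 (R 4.3.3) was fitted with trend and robust moderation to log2(RPKM + 1) of the 10688 genes whose mean reached 1 RPKM, in all 4 libraries, with genotype as the only term, two-sided, adjusted by Benjamini-Hochberg over all of them at 0.05. The fit was also run on simulated data, with an outcome that is not given here. Single values used exact permutation tests (scipy 1.17.1), and coding sequences were aligned with Biopython 1.88. Named are both genes of each paralog pair, the 10 highest and 5 lowest genes, up to 8 per direction with separated groups, the 5 of largest range, and the 3 of lowest p in each pathway list. A few genes are not reported here by name or in the plots of single genes, but stay in the counts. Genes named beyond this rule were chosen after their values were seen. The members and lists were chosen with earlier results of these data known. Scaling, rows per gene, pseudocount, filter, replicate block and left-out libraries were varied.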

Additional observations from a re-analysis of the deposited data

How the results depend on the processing

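No gene passed the adjusted threshold in limma under median-of-ratios scaling, the sum of a gene's rows, a pseudocount of 0.1 or no filter, and leaving out 1 library gave 21 to 66 genes. The replicate number as a block gave 1 gene, and 1638 at an unadjusted p under 0.05. Same-numbered libraries deviated together (correlation 0.51, equal for both numbers by construction), but 2 pairs and the labels do not show that the numbers pair the samples. With the block the median log2 difference of the 81 genes stayed at 0.07, and no ribosomal protein gene passed. How many of the 81 had an unadjusted p under 0.05 with the block is not given here. Leaving out 1 library moved that median from -0.0065 (without WT replicate 2) to 0.15 (without WT replicate 1), the separated genes from 24 to 62 higher and from 2 to 12 lower, and the share of the RPKM sum from -0.276 to 0.827 percentage points. Counts from 1 library against 2 are not on the scale of the main counts. In the same settings, 32.5% to 40.4% of all genes tested lay higher and 22.8% to 31.7% lower. The 62 of the 81 genes higher came without WT replicate 1, beside 39.0% of all genes. The 24 higher and 12 lower came without WT replicate 2, beside 32.5% and 22.8%. The 2 lower came without cKO replicate 1, beside 23.1%. Median-of-ratios scaling gave 7 genes higher and 2 lower. Relative to the median of all genes, an alternative chosen after seeing the data, the median was 0.05. The share of a sum is unchanged by scaling a library, so that alternative was not run for it.

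The log2 differences of the named genes are small beside the spread, and 43 of 477 values under other settings had the other sign. Of these 43, 38 came from leaving out 1 library and 5 from the other settings. Leaving out 1 library leaves its group with 1 replicate number only, so the number difference enters the genotype difference. Its part in the changed signs was not tested. Under median-of-ratios scaling the value was -0.0092 for Rpl22l1, -0.00078 for Rps15, -0.0083 for Rpl18, -0.031 for Rpl35a and -0.0050 for Rack1. Leaving out 1 library gave Rpl7 -0.027 to 0.18, Rpl10 -0.0065 to 0.16, Rpl22l1 -0.20 to 0.26, Rps27 -0.21 to 0.31, Rps16 -0.068 to 0.16, Rplp1 -0.038 to 0.13, Rpl19 -0.016 to 0.15, Rpl12 -0.058 to 0.24, Rpl8 -0.014 to 0.091, Rpl13a -0.049 to 0.21 and Rps15 -0.072 to 0.15. It also gave Rpl18 -0.14 to 0.20, Rps9 -0.072 to 0.19, Rps19bp1 -0.34 to 0.33, Rpl15 -0.025 to 0.021, Rpl27 -0.34 to 0.48, Rps14 -0.28 to 0.45, Rpl35a -0.32 to 0.34, Rps19 -0.14 to 0.38, Fau -0.15 to 0.26, Polr1c -0.0093 to 0.20 and Eif4ebp1 -0.50 to 0.0027. For the paralog ratios it gave Rpl7/Rpl7l1 -0.12 to 0.12, Rpl22/Rpl22l1 -0.060 to 0.32, Rpl36a/Rpl36al -0.037 to 0.090, Rpl39/Rpl39l -0.30 to 0.073 and Rps4x/Rps4l -0.33 to 0.058, and a pseudocount of 0.1 gave -0.00024 for Rpl7/Rpl7l1. Genes under 1 RPKM rest on few reads at this depth.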
